A study of Homo sapiens with 6 samples.

Results

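The mitochondrial genome of human cells carries 37 genes, and all of them were read here as the rows of the expression table that lie on the mitochondrial chromosome, 37 of 60843 rows. They are 13 protein-coding genes, 2 ribosomal RNA genes and 22 transfer RNA genes. The cells were SW872-S, a human liposarcoma line, grown in DMEM with fetal bovine serum. The control group, NC, carries the genotype label TP53INP2 NC, and the other group, TP53INP2_OE, carries the label TP53INP2 OE, for overexpression of the TP53INP2 gene from a plasmid. All 6 libraries, 3 in each group, come from this 1 line, so all of them share its background, and the labels do not give the vector of the control, how long after the plasmid the RNA was taken, or whether cells were selected. The labels do not state that the replicates were grown as separate cultures; p-values then cover the spread among these libraries and no more, and that spread may be technical. Per the labels' protocols, total RNA was taken up in Trizol and made into libraries with the Illumina TruSeq RNA kit. The series concerns TP53INP2, an autophagy protein, in the breakdown of mitochondria (mitophagy), and the comparison of the groups asks here how the RNA made by mitochondria stood when that gene was raised.

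Mitochondrial DNA is a small circle with hardly any sequence between its genes. Both strands are transcribed into long precursors that span many genes, and most messenger and ribosomal RNAs are released when the transfer RNAs lying between them are cut out, which is known as the tRNA punctuation model. The messengers encode core subunits of the respiratory chain complexes I, III and IV and of the ATP synthase, complex V; they are translated by mitochondrial ribosomes with the ribosomal and transfer RNAs of the same genome. Every protein needed to copy, transcribe, cut and stabilise these RNAs is encoded in the nucleus.

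Of the 37 genes, 28 lie on the plus strand of the reference and 9 on the minus strand, the latter being MT-ND6 and 8 transfer RNAs. The positions in the table were the same as in GENCODE release 29 on GRCh38 for 37 of 37 genes. There were 5 pairs of neighbours that overlap. The sequences of the 7 transfer RNAs with the most reads or past the test are shown because the transfer RNA results turn on them. They are written 5′ to 3′ on the strand of the gene, from the GENCODE 29 transcripts on GRCh38, with the anticodon, the 3 letters that pair with the codon, in capitals.
MT-TP (minus strand, chrM:15956-16023): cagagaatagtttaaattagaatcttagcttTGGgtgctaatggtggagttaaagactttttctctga
MT-TC (minus strand, chrM:5761-5826): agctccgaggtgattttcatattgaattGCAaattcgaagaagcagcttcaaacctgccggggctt
MT-TN (minus strand, chrM:5657-5729): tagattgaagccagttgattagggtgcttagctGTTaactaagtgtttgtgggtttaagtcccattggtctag
MT-TY (minus strand, chrM:5826-5891): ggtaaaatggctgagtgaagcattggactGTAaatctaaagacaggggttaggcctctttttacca
MT-TH (plus strand, chrM:12138-12206): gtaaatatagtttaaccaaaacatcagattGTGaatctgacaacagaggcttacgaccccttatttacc
MT-TG (plus strand, chrM:9991-10058): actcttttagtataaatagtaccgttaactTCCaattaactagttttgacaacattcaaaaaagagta
MT-TR (plus strand, chrM:10405-10469): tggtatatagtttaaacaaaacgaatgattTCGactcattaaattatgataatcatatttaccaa

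Messenger ends differ too. In 6 of the 13 protein-coding genes the coding sequence stops 1 or 2 letters into the last codon, and the stop codon is completed when a poly(A) tail is added. The last 30 bases of the complex IV genes and of MT-ND3 and MT-ND4, between which ratios are compared, are shown with the last codon, or the part of it that the genome holds, in capitals.
MT-CO1 (plus strand, chrM:7416-7445): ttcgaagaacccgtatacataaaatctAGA
MT-CO2 (plus strand, chrM:8240-8269): tttgaaatagggcccgtatttaccctaTAG
MT-CO3 (plus strand, chrM:9961-9990): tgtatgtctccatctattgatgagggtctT
MT-ND3 (plus strand, chrM:10375-10404): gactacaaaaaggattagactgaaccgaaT
MT-ND4 (plus strand, chrM:12108-12137): accccgacatcattaccgggttttcctctT
The genes with a partial last codon were found on both sides of the test: 4 of these 6 passed as higher in TP53INP2_OE, and 6 of the 7 with a whole last codon did, where 16.4% of all tested genes passed as higher.

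A pair of overlaps matters for reading the values, since a read inside one cannot be assigned to a single gene. The overlap, 46 bases in the pair MT-ATP8 and MT-ATP6 and 7 bases in MT-ND4L and MT-ND4, is in capitals, with 15 bases on each side.
MT-ATP8/MT-ATP6 (plus strand, chrM:8512-8587): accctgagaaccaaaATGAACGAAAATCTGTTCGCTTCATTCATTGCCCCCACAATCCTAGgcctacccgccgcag
MT-ND4L/MT-ND4 (plus strand, chrM:10745-10781): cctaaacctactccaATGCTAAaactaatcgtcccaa
MT-ATP8 is only 207 bases long, so the overlap is a large part of it, and no source used here states whether reads were assigned by strand or shared between genes.

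The libraries held between 16038062 and 17607612 reads assigned to genes. TP53INP2 itself had 10.6, 9.45 and 9.67 FPKM in the NC libraries and 18.9, 23.4 and 27.1 FPKM in the TP53INP2_OE libraries, where FPKM is reads divided by gene length in kilobases and by a total set for the library, and it rose with a log2 fold change of 1.13 (SE 0.121, limma adjusted p = 0.00282). The mesenchymal markers VIM, FN1, COL1A1 and S100A4 were present, while COL1A2 and THY1 were near 0. None of 5 adipocyte markers reached 0.5 FPKM, with ADIPOQ, FABP4 and LEP at 0 in every library, and PLIN1 and CIDEC held 0 to 8 and 0 to 1 reads; PLIN1 had more reads in TP53INP2_OE (7, 8 and 4) than in NC (2, 1 and 0). None of 5 immune markers and 1 of 4 epithelial markers (KRT8) reached that level, and all 4 endothelial markers did, with a summed level of 37.0 to 41.4 FPKM in NC and 34.1 to 35.7 FPKM in TP53INP2_OE. Most of that sum was CDH5, with a mean of 32.3 FPKM in NC and 27.8 FPKM in TP53INP2_OE. PECAM1 and VWF had higher means in TP53INP2_OE, and KDR had a lower mean. The part of these markers in the results was not tested.

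RNA from the mitochondrial genome took a larger share of the libraries with raised TP53INP2. Its genes held 2.85, 2.83 and 2.97% in NC and 3.48, 3.80 and 3.45% in TP53INP2_OE of all assigned reads, a mean of 2.88 ± 0.0779% against 3.58 ± 0.193% (SD, n = 3 each), or 1.24 times as much. The groups did not overlap, and the second TP53INP2_OE library was the highest. The exact two-sided permutation test gave p = 0.1, the smallest that 3 libraries against 3 can give. In bulk RNA, more mitochondria per cell, more RNA per mitochondrion and a smaller nuclear RNA pool cannot be told apart in such a share. MT-CO1 ranked first among all genes in every library, and 6 mitochondrial genes were in the top 10 and 11 in the top 20 of every library.

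By class, the shares of messengers and ribosomal RNAs differed by less than the spread between libraries. All of these are shares of reads, and how well the library kit captured each class of RNA was not tested. Of the mitochondrial reads, messengers held 91.8 ± 0.185% in NC and 91.9 ± 0.0984% in TP53INP2_OE, and ribosomal RNAs 7.73 ± 0.17% and 7.73 ± 0.104% (SD, n = 3 each), with overlapping groups. Transfer RNA genes held 0.445, 0.467 and 0.481% in NC and 0.415, 0.371 and 0.357% in TP53INP2_OE, and every TP53INP2_OE library was below every NC library (exact two-sided permutation p = 0.1, the smallest possible, and 0.4 after Benjamini-Hochberg adjustment over 4 shares). The genes of the minus strand held 1.56 ± 0.0518% and 1.51 ± 0.0535%, which overlapped. No source used here states whether reads were assigned by strand, so reads over these genes may come from either strand.

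**Figure D1:**
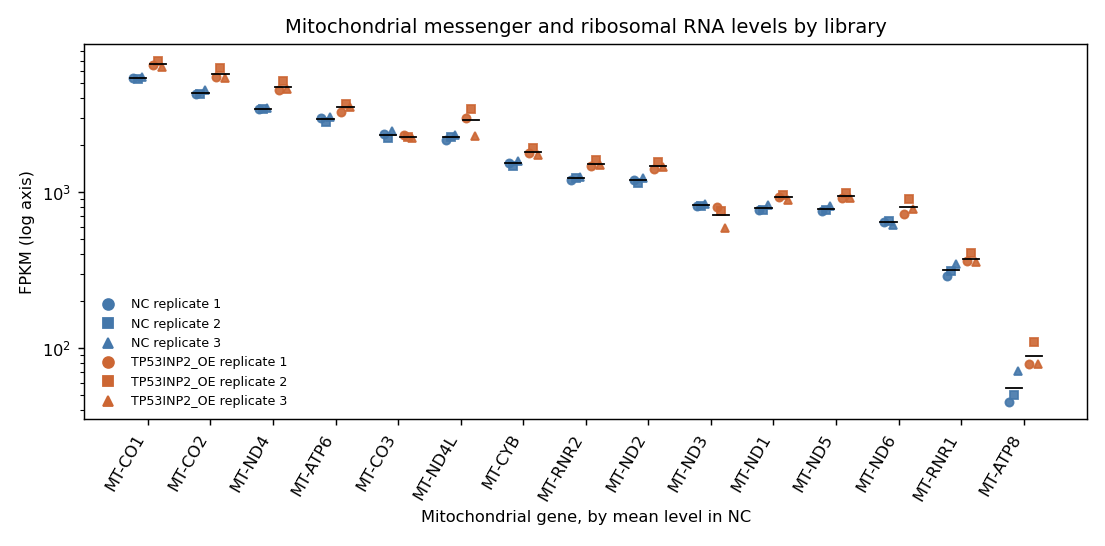
Level of the 13 messenger and 2 ribosomal RNA genes in each library, in FPKM on a log axis, with 1 point per library, blue for NC and orange for TP53INP2_OE, and a line at each group mean. MT-CO1 is the highest, between 5299 and 6944 FPKM, and MT-ATP8 the lowest, between 45.0 and 109 FPKM; for MT-CO3 the points of the groups overlap.

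Among the 13 messengers, 10 rose and none fell in TP53INP2_OE, by limma on log2(FPKM + 1) with Benjamini-Hochberg adjustment over the 14791 genes tested and a threshold of 0.05. Across all tested genes the background was 35.0% called, 16.4% higher and 18.6% lower, and the median log2 fold change was 0.0032, against 0.30 over the 13 messengers. In 10 of the 13 the libraries of the groups did not overlap with TP53INP2_OE on top, where 25.2% of all tested genes had that order and 50.8% separated in either order. The messengers have a GC content of 39.6 to 47.7%, and nuclear protein-coding genes of that GC range were also more often higher than lower: of 3731 such genes, 29.8% rose and 2.95% fell, with a median of 0.11. Nuclear protein-coding genes of at least 500 FPKM, a level that most messengers reached, went the other way. Of 16 such genes 2 rose and 7 fell, with a median of -0.0999. Only 3 of them were also in the GC range, of which 1 rose and 0 fell. With GC content and gene length fitted out, 7 messengers rose and none fell (median 0.22), against a background of 10.4% called, 4.53% higher and 5.88% lower. By limma's voom on the reads behind the FPKM values, 11 messengers rose and 1 fell, against 41.5% called, 19.8% higher and 21.7% lower. Without the filter on low values 0 messengers passed limma (5 at an unadjusted p below 0.05), and 7 did when limma's trend was dropped as well. Quantile normalization, which fixes the value of each rank, left no difference for MT-CO1, MT-CO2, MT-ATP6 and MT-ND4. Fold changes below are on the log2(FPKM + 1) scale, and adjusted p-values are from this limma fit unless another is named.

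Complex I, the NADH dehydrogenase through which electrons enter the chain, has 7 of its core subunits in this genome, and 5 of the 7 rose. MT-ND4, a membrane subunit of the proton-pumping arm, had the largest change among the messengers above 100 FPKM. It had 3409, 3432 and 3456 FPKM in the NC libraries and 4499, 5161 and 4577 FPKM in the TP53INP2_OE libraries, so the lowest TP53INP2_OE library was far above the highest NC library. The level went from 3432 ± 23.2 to 4746 ± 362 FPKM (SD, n = 3 each; log2 fold change 0.46, SE 0.059, adjusted p = 0.00325), and the call held with GC content and length fitted out (0.40, adjusted p = 0.0119).

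MT-ND5 and MT-ND2, 2 further pump subunits, and MT-ND1, which sits where the quinone binds, rose by similar amounts. MT-ND2 had 1196, 1154 and 1239.7 FPKM in the NC libraries and 1414, 1568 and 1447 FPKM in the TP53INP2_OE libraries (log2 fold change 0.30, SE 0.0512, adjusted p = 0.00637). MT-ND5 had 756, 767 and 816 FPKM in the NC libraries and 914, 995 and 926 FPKM in the TP53INP2_OE libraries (log2 fold change 0.28, SE 0.0486, adjusted p = 0.00698), and MT-ND1 had 765, 774 and 831 FPKM in the NC libraries and 931, 966 and 891 FPKM in the TP53INP2_OE libraries (log2 fold change 0.23, SE 0.0485, adjusted p = 0.0118). In each of the 3 genes the groups did not overlap, with TP53INP2_OE on top, and each call held with GC content and length fitted out (adjusted p = 0.0305, 0.0257 and 0.0276).

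MT-ND6 is the only messenger of the minus strand. It had 643, 658 and 620.4 FPKM in the NC libraries and 729.6, 903 and 786 FPKM in the TP53INP2_OE libraries, without overlap, and rose (log2 fold change 0.33, SE 0.0772, adjusted p = 0.0184). The call was lost with GC content and length fitted out (0.21, adjusted p = 0.105) and without NC replicate 1 or NC replicate 3 (adjusted p = 0.0579 and 0.0587). The ratio of MT-ND6 to MT-ND5, its neighbour on the opposite strand, was 0.823 ± 0.0543 in NC and 0.851 ± 0.0545 in TP53INP2_OE (mean ± SD, 3 libraries each), and the groups overlapped. Reads over MT-ND6 may include RNA of the plus strand, since the strand setting of the counting is not stated.

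The remaining complex I messengers, MT-ND4L and MT-ND3, are short and did not pass. MT-ND4L, which shares its messenger with MT-ND4, had 2172, 2277 and 2332 FPKM in the NC libraries and 2975, 3414 and 2301 FPKM in the TP53INP2_OE libraries (log2 fold change 0.34, SE 0.134, adjusted p = 0.0945). The first and second TP53INP2_OE libraries were above all NC libraries and the third was inside the NC range; without TP53INP2_OE replicate 3 the adjusted p was 0.0114, and voom on the reads of all 6 libraries called it higher (0.34, adjusted p = 0.00023). The ratio of MT-ND4L to MT-ND4 was 0.637, 0.663 and 0.675 in NC and 0.661, 0.661 and 0.503 in TP53INP2_OE, so that the third TP53INP2_OE library alone was low.

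MT-ND3, a small subunit next to the quinone site, was lower in every TP53INP2_OE library than in any NC library without passing the test. It had 814, 815 and 843 FPKM in the NC libraries and 799, 764 and 594 FPKM in the TP53INP2_OE libraries (log2 fold change -0.21, SE 0.107, adjusted p = 0.179). The spread among the TP53INP2_OE libraries was wide, with the third the lowest, while the NC libraries were close together. Voom on the reads called it lower (adjusted p = 0.0078).

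MT-CYB encodes cytochrome b, the only complex III subunit of this genome. It had 1551, 1475 and 1585 FPKM in the NC libraries and 1795, 1922 and 1736 FPKM in the TP53INP2_OE libraries, without overlap, and rose (log2 fold change 0.24, SE 0.0511, adjusted p = 0.0127), also with GC content and length fitted out (0.22, adjusted p = 0.0411).

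Complex IV, cytochrome c oxidase, passes electrons to oxygen, and of its 3 messengers MT-CO1 and MT-CO2 rose while MT-CO3 did not pass. MT-CO1, the catalytic subunit, had 5376, 5299 and 5457 FPKM in the NC libraries and 6519, 6944 and 6383 FPKM in the TP53INP2_OE libraries (log2 fold change 0.30, SE 0.0464, adjusted p = 0.0052). MT-CO2, which takes the electrons from cytochrome c, had 4281, 4277 and 4520.0 FPKM in the NC libraries and 5467, 6289 and 5415 FPKM in the TP53INP2_OE libraries (log2 fold change 0.39, SE 0.0672, adjusted p = 0.00667). Both groups were separate in each of these genes, and both calls held with GC content and length fitted out (0.27, adjusted p = 0.0171 for MT-CO1 and 0.36, adjusted p = 0.0213 for MT-CO2).

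MT-CO3, the third core subunit, had 2355, 2220.3 and 2455 FPKM in the NC libraries and 2318, 2267 and 2227 FPKM in the TP53INP2_OE libraries (log2 fold change -0.044, SE 0.0472, adjusted p = 0.511). The groups overlapped throughout, and the TP53INP2_OE libraries lay within the NC range.

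Complex V, the ATP synthase, has 2 messengers here, MT-ATP6 and MT-ATP8, which overlap as shown above, and both rose. MT-ATP6, part of the proton channel, had 3014, 2829 and 3046 FPKM in the NC libraries and 3296, 3704 and 3510.4 FPKM in the TP53INP2_OE libraries (log2 fold change 0.24, SE 0.0562, adjusted p = 0.0176). MT-ATP8 had 45.1, 49.9 and 71.3 FPKM in the NC libraries and 79.1, 109 and 79.2 FPKM in the TP53INP2_OE libraries, on 152 to 388 reads (log2 fold change 0.69, SE 0.194, adjusted p = 0.0334). In both genes the TP53INP2_OE libraries were all higher, but in MT-ATP8 the third NC library was far above the other NC libraries. Neither call held with GC content and length fitted out (0.17, adjusted p = 0.0888 for MT-ATP6 and 0.48, adjusted p = 0.108 for MT-ATP8). The MT-ATP6 call was lost without NC replicate 1 or NC replicate 2 (adjusted p = 0.0515 and 0.0625), and the MT-ATP8 call without any 1 of NC replicates 1 and 2 (0.101 and 0.102) or TP53INP2_OE replicates 1, 2 and 3 (0.0509, 0.0926 and 0.0511).

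The second TP53INP2_OE library was the highest of its group for 11 of the 13 messengers and for both ribosomal RNAs. The coefficient of variation of a messenger had a median of 3.61% in NC and 5.83% in TP53INP2_OE.

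**Figure D2:**
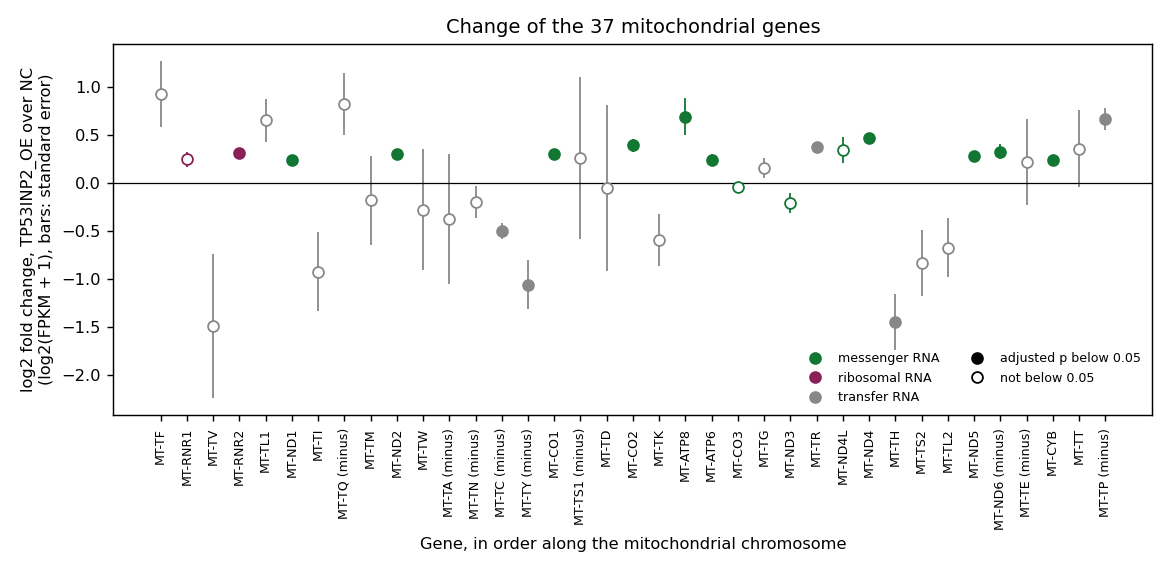
Log2 fold change of each of the 37 genes (vertical axis, TP53INP2_OE over NC on the log2(FPKM + 1) scale, with the standard error as bars) in their order along the mitochondrial chromosome. Filled points have a limma adjusted p below 0.05; MT-ND4 is at 0.46, while MT-CO3 and MT-ND3, with MT-TG between them, are open points at -0.044 and -0.21.

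Since almost every messenger was higher, the makeup of the messenger pool was compared by giving each gene as a share of the reads of the 13 messengers of its library. Within that pool MT-CO3 and MT-ND3 took less and MT-ND4 and MT-CO2 more in every TP53INP2_OE library. MT-CO3 held 7.04, 6.74 and 7.14% in NC and 5.74, 5.12 and 5.57% in TP53INP2_OE, a mean of 6.97 ± 0.208% against 5.48 ± 0.322% (SD, n = 3 each). MT-ND3 held 1.07, 1.09 and 1.08% in NC and 0.873, 0.76 and 0.656% in TP53INP2_OE, or 0.705 times the NC share. Neither share overlapped between the groups, and the NC libraries lay close together for MT-ND3.

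MT-ND4 held 17.9, 18.3 and 17.7% in NC and 19.6, 20.5 and 20.1% in TP53INP2_OE, and MT-CO2 held 11.2, 11.3 and 11.5% in NC and 11.8, 12.4 and 11.8% in TP53INP2_OE; both were higher in all 3 TP53INP2_OE libraries. MT-CYB went the other way by a small amount, with 6.66 ± 0.126% in NC and 6.37 ± 0.0854% in TP53INP2_OE, again without overlap. For the other 8 messengers the shares overlapped; MT-CO1 held 31.5 ± 0.252% and 31.3 ± 0.465%. Each of the 5 shares that separated had an exact two-sided permutation p of 0.1, the smallest possible, and 0.26 after adjustment over the 13 shares, so none passed. Shares in a pool sum to 100%, so a higher share of 1 messenger lowers those of others.

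**Figure D3:**
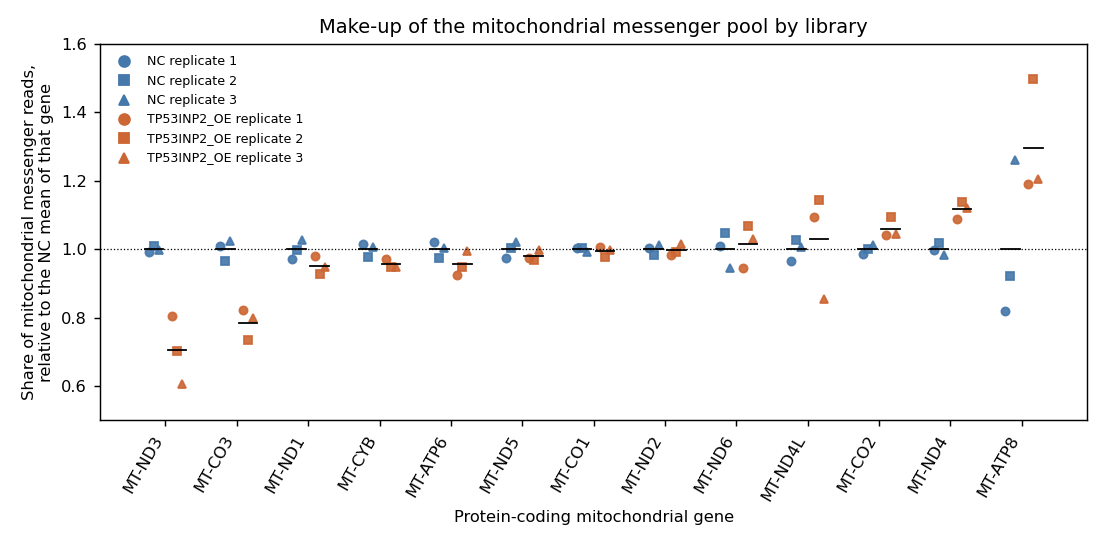
Share of each messenger in the reads of all 13 mitochondrial messengers, divided by the NC mean of that gene, with 1 point per library and a line at each group mean. The TP53INP2_OE mean is 0.705 for MT-ND3, 0.785 for MT-CO3 and 1.12 for MT-ND4, with all 3 TP53INP2_OE points outside the NC points in each; MT-ATP8 has the widest spread.

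The limma fit was repeated with each library scaled to the same mitochondrial messenger total. On that scale 3 of the 13 messengers passed, of which 1 rose and 2 fell: MT-ND4 (0.15, adjusted p = 0.0429), MT-CO3 (-0.35, adjusted p = 0.00382) and MT-ND3 (-0.52, adjusted p = 0.00615). All 3 were among the 5 with separate shares. The fit uses the same reads as the shares, so it is no separate evidence for them. MT-CO2 (0.08, adjusted p = 0.247) and MT-CYB (-0.069, adjusted p = 0.267) did not pass. This scale lowers all genes of the TP53INP2_OE libraries, and 45.0% of all tested genes were called on it, 1.25% higher and 43.7% lower, so a fall there is to be read against the messengers and not against the cell.

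Ratios between genes of 1 complex or 1 precursor use no library total. MT-CO3 over MT-CO1, in FPKM, was 0.438, 0.419 and 0.45 in NC and 0.356, 0.327 and 0.349 in TP53INP2_OE, and MT-CO3 over MT-ATP6, its neighbour upstream, was 0.791 ± 0.0135 and 0.65 ± 0.0476 (SD, n = 3 each). MT-ND3 over MT-ND4 was 0.239, 0.237 and 0.244 in NC and 0.178, 0.148 and 0.13 in TP53INP2_OE. In these 3 ratios every TP53INP2_OE library was below every NC library. MT-CO2 over MT-CO1 was above in all, at 0.811 ± 0.0163 and 0.864 ± 0.0362. MT-ATP8 over MT-ATP6 overlapped (0.0187 ± 0.00432 and 0.0253 ± 0.00364). Over the 10 ratios computed, the smallest exact permutation p of 0.1 became 0.2 after adjustment.

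**Figure D4:**
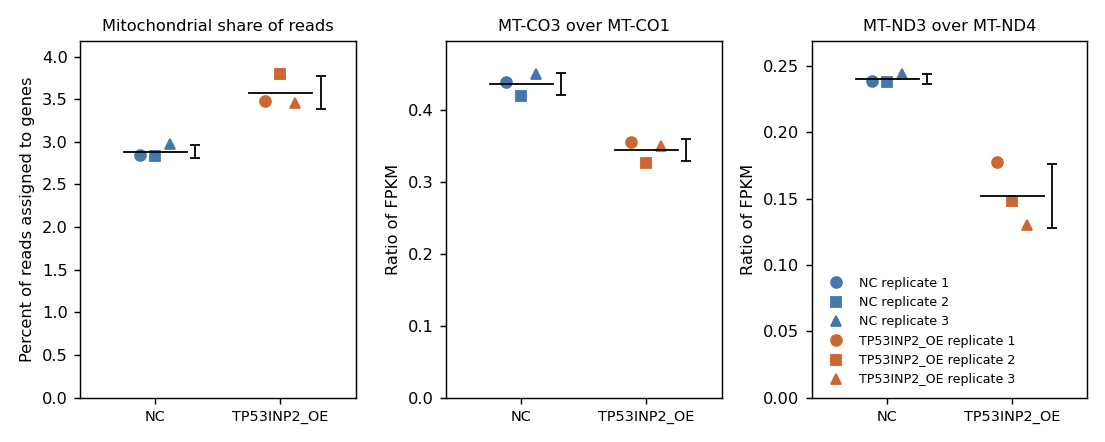
Mitochondrial share of all reads assigned to genes, in percent, and the ratios MT-CO3 over MT-CO1 and MT-ND3 over MT-ND4 in FPKM, with 1 point per library, a line at the group mean and bars of 1 SD. The share is 2.83 to 2.97% in NC and 3.45 to 3.80% in TP53INP2_OE, and both ratios are lower in all 3 TP53INP2_OE libraries.

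The 2 ribosomal RNAs, MT-RNR1 of the small and MT-RNR2 of the large mitochondrial ribosomal subunit, lie near the start of the plus-strand precursor with MT-TV between them. MT-RNR2 had 1200, 1231 and 1255 FPKM in the NC libraries and 1485, 1601 and 1498 FPKM in the TP53INP2_OE libraries and rose (log2 fold change 0.31, SE 0.0425, adjusted p = 0.00359), also with GC content and length fitted out (0.21, adjusted p = 0.015). MT-RNR1 had 290.4, 311 and 349 FPKM in the NC libraries and 364, 406 and 356 FPKM in the TP53INP2_OE libraries; its groups did not overlap, but the third NC library came close to the lowest TP53INP2_OE library, and it missed the threshold (log2 fold change 0.25, SE 0.0789, adjusted p = 0.0511). Without NC replicate 3 it passed (adjusted p = 0.0254), as it did by voom on the reads (adjusted p = 0.000385). MT-RNR2 over MT-RNR1 was 3.90 ± 0.272 in NC and 4.08 ± 0.131 in TP53INP2_OE, with overlap.

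The 22 transfer RNA genes, of 59 to 75 bases, moved in both directions: 2 rose, 3 fell and 17 did not pass, with a median log2 fold change of -0.19. The background was again 16.4% higher and 18.6% lower. The libraries separated in 8 of the 22, with 4 above and 4 below NC, where 25.2% and 25.6% of all tested genes did. In 2 of the 4 above, MT-TF with 0 to 3 reads and MT-TQ with 0 to 3 reads, the highest NC and the lowest TP53INP2_OE library held the same number of reads, so only the library totals set them apart. MT-TF, with a mean of 0.264 FPKM over the NC libraries and 1.43 FPKM over the others, passed the filter on low values through TP53INP2_OE. Reads over a transfer RNA gene can come from the mature molecule or from a precursor that still holds it, and these values cannot tell them apart. Read numbers are given for these genes because they are small: 14 had at most 26 reads in every library, and 7 had 0 reads in at least 1 library, where 0 reads allow up to 3 as a one-sided limit.

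MT-TP, the transfer RNA for proline on the minus strand, rose. It had 461, 514 and 642 reads in NC and 717, 950 and 787 in TP53INP2_OE, or 416, 427 and 529.9 FPKM in the NC libraries and 652, 814 and 714 FPKM in the TP53INP2_OE libraries, without overlap (log2 fold change 0.67, SE 0.115, adjusted p = 0.00658). The call held with GC content and length fitted out (0.38, adjusted p = 0.0181) and against the messengers (0.36, adjusted p = 0.0172 on the scale of equal messenger totals). MT-TR, for arginine, between MT-ND3 and MT-ND4L, had 52, 63 and 57 reads in NC and 73, 73 and 67 in TP53INP2_OE and also rose (log2 fold change 0.37, SE 0.0556, adjusted p = 0.00476). That call was lost with GC content and length fitted out (0.18, adjusted p = 0.134) and by voom on the reads (adjusted p = 0.159).

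MT-TH, the transfer RNA for histidine that follows MT-ND4 directly, fell the most of the transfer RNAs that passed the test. It had 71, 80 and 71 reads in NC and 26, 16 and 38 in TP53INP2_OE, where the exact 95% Poisson interval, for counting error only, is 55.5 to 89.6 for the 71 reads of the first NC library and 26.9 to 52.2 for the 38 reads of the highest TP53INP2_OE library. In FPKM the level went from 62.1 ± 3.97 to 23.6 ± 10.2 FPKM (SD, n = 3 each; log2 fold change -1.45, SE 0.288, adjusted p = 0.0104), and the call held with GC content and length fitted out (-1.73, adjusted p = 0.0264) and with any 1 library left out. Its neighbour MT-ND4 rose in the same libraries: MT-TH over MT-ND4, in FPKM, was 0.0185, 0.0191 and 0.0167 in NC and 0.00518, 0.00262 and 0.00742 in TP53INP2_OE.

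MT-TC and MT-TY, for cysteine and tyrosine, overlap by 1 base on the minus strand, and both fell. MT-TC had 558, 531 and 521 reads in NC and 396, 356 and 338 in TP53INP2_OE (log2 fold change -0.50, SE 0.0855, adjusted p = 0.00649; -0.64, adjusted p = 0.0246 with GC content and length fitted out). MT-TY had 83, 90 and 74 reads in NC and 57, 32 and 28 in TP53INP2_OE (log2 fold change -1.06, SE 0.257, adjusted p = 0.0203; -1.26, adjusted p = 0.045 with GC content and length fitted out). In both genes all TP53INP2_OE libraries were below all NC libraries. The MT-TY call was lost without NC replicate 1 or 2 or TP53INP2_OE replicate 2 or 3 (adjusted p = 0.0677, 0.0658, 0.0678 and 0.0524).

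MT-TN, for asparagine, is next to MT-TC on the same strand and had 616, 773 and 849 reads in NC and 749, 660 and 475 in TP53INP2_OE, with overlap (log2 fold change -0.20, SE 0.168, adjusted p = 0.403). MT-TG, for glycine, between MT-CO3 and MT-ND3, had 107, 136 and 137 reads in NC and 146, 145 and 114 in TP53INP2_OE, also with overlap (log2 fold change 0.15, SE 0.104, adjusted p = 0.297). The other 15 transfer RNAs had 0 to 119 reads, log2 fold changes of -1.49 to 0.93 and adjusted p-values of 0.0596 to 0.969. By strand, 1 of the 14 plus-strand transfer RNAs rose and 1 fell, and 1 of the 8 on the minus strand rose and 2 fell. Over all tested genes 16.4% rose and 18.6% fell, and these counts by strand are too small to set against those shares.

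**Figure D5:**
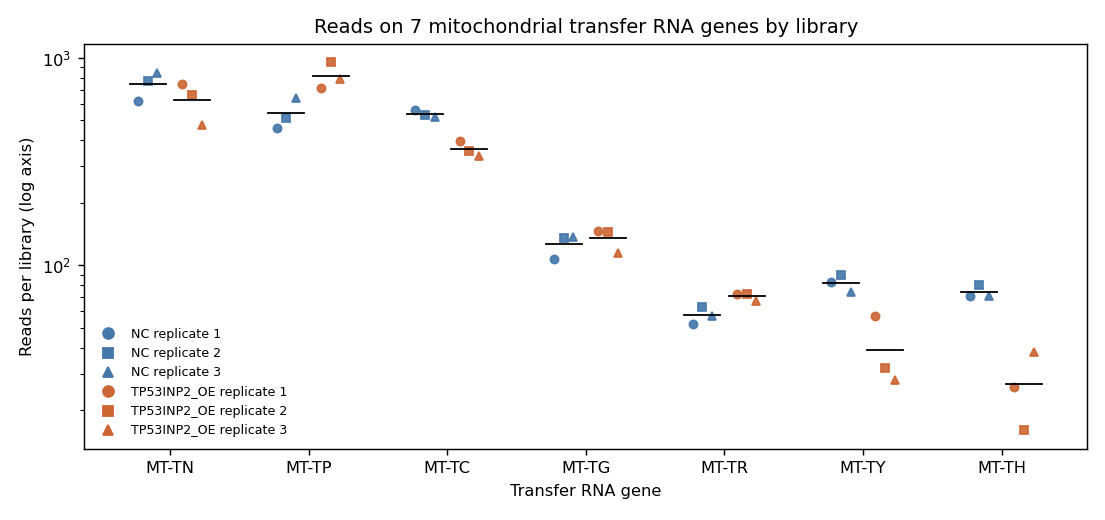
Reads on the 7 transfer RNA genes described in full, for each library, on a log axis, with a line at each group mean. MT-TP is higher and MT-TC, MT-TY and MT-TH are lower in all TP53INP2_OE libraries, MT-TH going from 71 to 80 reads in NC to 16 to 38 reads, and MT-TN and MT-TG overlap.

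Short genes of the nucleus are a second yardstick for these small genes. Of 106 tested nuclear genes of at most 75 bases, 8 rose (7.55%) and 7 fell (6.60%), with a median of 0.026. Both shares were below the 16.4% higher and 18.6% lower of all tested genes. Of the 22 transfer RNAs 2 rose and 3 fell.

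The table also lists 394 nuclear copies of mitochondrial genes, old insertions of mitochondrial DNA, by symbols that end in P and a number. Any copies under other symbols were not counted. Of the 394 copies, 68 held reads. Together they held 0.521 to 0.776% as many reads as the mitochondrial genes, 97.7% of these in 3 copies on chromosome 1. MTND2P28 (chr1:629640-630683) went from 120.1 ± 7.59 to 139.9 ± 31.4 FPKM (adjusted p = 0.397). MTATP6P1 (chr1:633696-634376) had 104, 105 and 105 FPKM in the NC libraries and 128, 143 and 79.9 FPKM in the TP53INP2_OE libraries (adjusted p = 0.689). MTCO1P12 (chr1:631074-632616) went from 7.69 ± 2.14 to 6.14 ± 0.923 FPKM (adjusted p = 0.3; SD, n = 3 each). None of the 3 passed, and no source used here states how reads that match both places were assigned, so the levels of MT-ND2, MT-ATP6 and MT-CO1 are uncertain to that extent. MTND2P28 held 1756 to 2840 reads beside 20305 to 28052 for MT-ND2, MTATP6P1 held 883 to 1674 beside 33452 to 43314 for MT-ATP6, and MTCO1P12 held 141 to 253 beside 135113 to 183883 for MT-CO1.

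Nuclear genes act on mitochondrial DNA and RNA by copying, transcribing, cutting, modifying or stabilising it. Of 45 such genes 44 were tested, and 10 rose (22.7%) and 9 fell (20.5%), near the background of 16.4% higher and 18.6% lower, with a median log2 fold change of 0.069. TFAM, which packages mitochondrial DNA and starts its transcription, went from 17.4 ± 0.925 to 19.8 ± 0.898 FPKM (log2 fold change 0.18, SE 0.0527, adjusted p = 0.0403), and the call was lost without NC replicate 1 or 2 or TP53INP2_OE replicate 2 or 3 (adjusted p = 0.0909, 0.116, 0.103 and 0.0797). POLRMT, the mitochondrial RNA polymerase, fell from 21.5 ± 1.36 to 17.0 ± 0.698 FPKM (log2 fold change -0.32, SE 0.0554, adjusted p = 0.00662). LRPPRC, which binds and stabilises mitochondrial messengers, rose from 24.5 ± 0.502 to 30.6 ± 1.78 FPKM (log2 fold change 0.31, SE 0.0479, adjusted p = 0.00527).

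Of the enzymes that free transfer RNAs from precursors, 1 of 4 rose and 2 fell. Over all tested genes 16.4% rose and 18.6% fell, and 4 genes are too few to set against these shares. TRMT10C, a subunit of mitochondrial ribonuclease P, rose from 21.2 ± 0.398 to 25.8 ± 0.347 FPKM (log2 fold change 0.27, SE 0.0331, adjusted p = 0.00316), and HSD17B10, another subunit of it, fell from 36.6 ± 0.452 to 25.8 ± 2.14 FPKM (log2 fold change -0.49, SE 0.0604, adjusted p = 0.00314). PRORP, the catalytic subunit, did not pass (0.079, adjusted p = 0.46), and ELAC2, which cuts the other end of the transfer RNA, fell (-0.21, adjusted p = 0.0276); PRORP and ELAC2 were added after their values were seen. FASTKD2, an RNA-binding protein needed for the large ribosomal subunit, and MTERF3, a regulator of mitochondrial transcription, rose by 0.24 and 0.24 (adjusted p = 0.0128 and 0.00627). GTPBP3, a transfer RNA modification enzyme, and TOP1MT, the mitochondrial topoisomerase, had log2 fold changes of -0.40 and -0.35 (adjusted p = 0.00731 and 0.00619). Only 2 of the 44 tested genes passed with GC content and length fitted out, where 10.4% of all tested genes did, LRPPRC (0.16, adjusted p = 0.0368) and HSD17B10 (-0.27, adjusted p = 0.0181), and the median was -0.016; POLRMT was then at -0.0028 (adjusted p = 0.982). The part of GC content in these changes was not tested.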

How the data were processed

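RNA sequencing of 6 SW872-S libraries, 3 NC and 3 TP53INP2_OE, was analysed from 1 table of FPKM values for 60843 genes, which the authors deposited with gene name, position, length and type, per the file headers. Bowtie 0.12.2 appears in the submitters' processing notes, as do GRCh38 and mm8, without their roles. The read counter, its strand setting and its treatment of reads matching several places are not stated in any source read. Groups come from the sample titles. Reads behind the values were recovered from FPKM times gene length in units of the smallest step of each library. Within a tolerance of 0.01, 100% of values came out whole, and the totals were 16038062 to 17607612 per library.

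Genes averaging 0.5 FPKM or more in the 6 libraries (14791, including all 37 mitochondrial genes) were compared on log2(FPKM + 1) with limma 3.58.1 in R 4.3.3 (empirical Bayes with trend, Benjamini-Hochberg adjustment over all tested genes, threshold 0.05). This scale understates changes of low genes. Shares and ratios of single values were compared by exact two-sided permutation tests (scipy 1.17.1). GC content was that of the longest GENCODE 29 transcript and was fitted out with gene length by splines of 5 degrees of freedom each. The limma steps were tested on simulated data, with changes larger than those of any messenger here. That test does not cover changes of the size found for the messengers. Full statistics are given for messenger and ribosomal RNAs, for transfer RNAs with a mean of at least 100 reads or past the threshold, for up to 4 genes in each direction of the list of nuclear genes of mitochondrial RNA metabolism plus TFAM, POLRMT and LRPPRC, and for the 3 nuclear copies with the most reads. The members and lists were chosen with earlier results of these data known. Alternatives covered the pseudocount, the filter, TPM, other library totals, quantile normalization, voom on the reads, GC content with length, the replicate block and each library left out.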

Additional observations from a re-analysis of the deposited data

How the results depend on the processing

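Of 14791 genes tested by limma, 5183 passed, and 1514 passed with GC content and gene length fitted out; with 1 library left out at a time the number was 3276 (without NC replicate 1) to 4779. Of the 13 messengers 10 passed, with 7 to 10 when a library was left out. Without the filter on low values 0 passed (5 at an unadjusted p below 0.05, and 12 by voom on the reads with the filter), and with equal mitochondrial messenger totals 3 did. Dropping limma's trend, an alternative chosen after seeing the data, left 9, and dropping trend and filter together left 7. Of the 22 transfer RNAs 5 passed, 8 with equal messenger totals, and 4 to 8 with a library left out, the 8 being without NC replicate 3. With equal messenger totals 1 transfer RNA rose and 7 fell, where 1.25% of all tested genes rose and 43.7% fell.

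Of the 2 ribosomal RNAs 1 passed. Both, 2, passed with a pseudocount of 0.1, a filter of 5 FPKM, TPM, equal nuclear totals, quantile normalization or voom, and 1 to 2 with a library left out (2 without NC replicate 3). Without the filter 0 passed (2 at an unadjusted p below 0.05), and 0 passed with equal messenger totals. Of the 44 genes of mitochondrial RNA metabolism 19 passed, 2 with GC content and length fitted out, 12 without filter and trend, and 10 (without NC replicate 1) to 20 with a library left out, 11 without NC replicate 2.

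With equal messenger totals the log2 fold change turned negative for MT-RNR1 (-0.064), MT-ND1 (-0.075), MT-ND2 (-0.0077), MT-CO1 (-0.012), MT-ATP6 (-0.069), MT-TG (-0.15), MT-ND5 (-0.033), MT-CYB (-0.069), TRMT10C (-0.029), FASTKD2 (-0.030), MTERF3 (-0.052) and TFAM (-0.12), since that scale lowers every gene of the TP53INP2_OE libraries. With GC content and length fitted out it did so, among the genes described with full statistics, for MT-TG (-0.075) and TFAM (-0.021); the cause was not tested. Quantile normalization sets MT-CO1, MT-CO2, MT-ATP6 and MT-ND4 to a difference of 0, because it gives these top ranks the same values in every library.

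Differences in shares that overlapped between groups changed sign, in percentage points. Taken over summed FPKM, they were 0.088 for ribosomal RNA, 0.10 for MT-CO1 and 0.036 for MT-ND2. With a library left out they ran from -0.096 to 0.067 for ribosomal RNA, from -0.38 to 0.080 for MT-CO1, from -0.064 to 0.30 for MT-ND4L, from -0.058 to 0.022 for MT-ND2 and from -0.016 to 0.063 for MT-ND6. With 3 libraries a group, no exact test of a share can reach the threshold.

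Deviations of libraries with the same replicate number in the labels correlated at 0.0170, 0.0119 and 0.0107. TP53INP2_OE replicates 1 and 3 matched the NC library of their own number best, while TP53INP2_OE replicate 2 matched NC replicate 3 best. Correlations this small cannot show whether the replicate numbers pair the libraries. With the number as a replicate block, 4396 genes, 8 messengers, 5 transfer RNAs, 1 ribosomal RNA and 17 genes of mitochondrial RNA metabolism passed limma; MT-ATP8 (adjusted p = 0.0519), MT-ATP6 (0.0528) and TFAM (0.0905) no longer did. Transfer RNAs with under 10 reads are limited by depth.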
